A study of Mus musculus with 6 samples.

Results

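The autophagy machinery genes are 36 genes for the proteins that start, build, load and label the autophagosome, chosen by name from a list and read from the gene counts of mouse Th1 cells with and without ALX-5407. They are 36 of the 54532 genes in the count table, and all 36 passed the filter on low counts that left 15938 genes for testing. CD4+ T cells were negatively selected with magnetic beads from the spleens of male C57BL/6 mice aged 6 to 8 weeks, activated through CD3 and CD28, and cultured for 72 h with IL-2, IL-12 and an antibody to IL-4, which directs them to the Th1 fate. The comparison set 3 such cultures with vehicle (0.1% DMSO; called Th1) against 3 that also received ALX-5407 at 500 nM, which blocks glycine uptake through the transporter GlyT1 (called ALX-5407). The deposited description gives 72 h of exposure to the drug, and the methods of the study give a shorter time. The labels call the samples biological replicates but do not say whether they came from separate mice, so the p-values measure the spread between these cultures. The cells were a mixed primary population kept in vitro, and RNA was measured in bulk, so that fewer cells of a type and less RNA per cell cannot be told apart.

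Autophagy encloses cytoplasm, organelles or protein aggregates in a double membrane, the autophagosome, and delivers them to the lysosome for breakdown. The ULK kinase complex and a class III PI3-kinase complex start the membrane, carriers supply it with lipid, and a ubiquitin-like conjugation chain attaches ATG8 proteins (the LC3 and GABARAP families) to it, where they bind cargo receptors. In T cells the pathway is known for removing mitochondria as cells mature and for supporting the survival of activated and memory cells.

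The libraries held 30801753 to 36727788 counts on genes, and the machinery genes took up 0.200% to 0.217% of them. Levels are given as CPM, a count scaled to the size of its library with TMM factors of 0.965 to 1.03, and log2 fold changes compare ALX-5407 with Th1, so that a negative value is a lower level with the drug. The mean count of a machinery gene over the 6 libraries lay between 132 and 5644, so every gene was measured well above the filter. The 6 markers of CD4 T cells summed to 2200 to 2431 CPM in Th1 libraries and to 2332 to 2353 CPM in ALX-5407 libraries, with 2 of them higher and 3 lower, and the 4 Th1 markers to 698 to 748 CPM and to 663 to 693 CPM, with 1 higher and 1 lower. The 4 B cell markers summed to 5.52 to 6.73 CPM and to 7.42 to 10.4 CPM, of which Ms4a1 and Cd79a were higher with ALX-5407, and the 2 CD8 markers summed to 9.25 to 9.59 CPM and to 6.71 to 8.87 CPM, of which Cd8a was lower. Markers of myeloid, NK and erythroid cells summed to 0.715 CPM or less in each library. The part of these traces of other cells in the results was not tested.

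Of the 36 machinery genes, 3 were higher and 13 were lower with ALX-5407 at an adjusted p-value under 0.05 (edgeR's quasi-likelihood test, Benjamini-Hochberg adjustment over all genes tested). This is 8.33% higher and 36.1% lower, beside 24.5% higher and 23.2% lower over all genes tested. The median log2 fold change was -0.12, beside 0.0053 over all genes, with 14 machinery genes above 0 and 22 below. Among protein-coding genes whose mean count lay within the range of the machinery genes, 33.4% were higher and 24.2% lower. The remaining 20 machinery genes did not pass the test. Only Atg16l2 passed the additional threshold of an absolute log2 fold change over 1, which made it the 1 differentially expressed gene (DEG) by the study's definition, where 6.68% of all genes were lower DEGs and 3.36% higher DEGs. In 15 genes every ALX-5407 library lay below every Th1 library, in 7 every one lay above, and in 14 the groups overlapped (over all genes, 27.1% and 28.4% did not overlap in these directions). All 16 called genes were among those without overlap. Every count of 0 given for a role or a set of targets was also 0 in DESeq2 and limma-voom, and at an unadjusted p under 0.05 in edgeR with the exception of the ATG4 proteases.

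**Figure D1:**
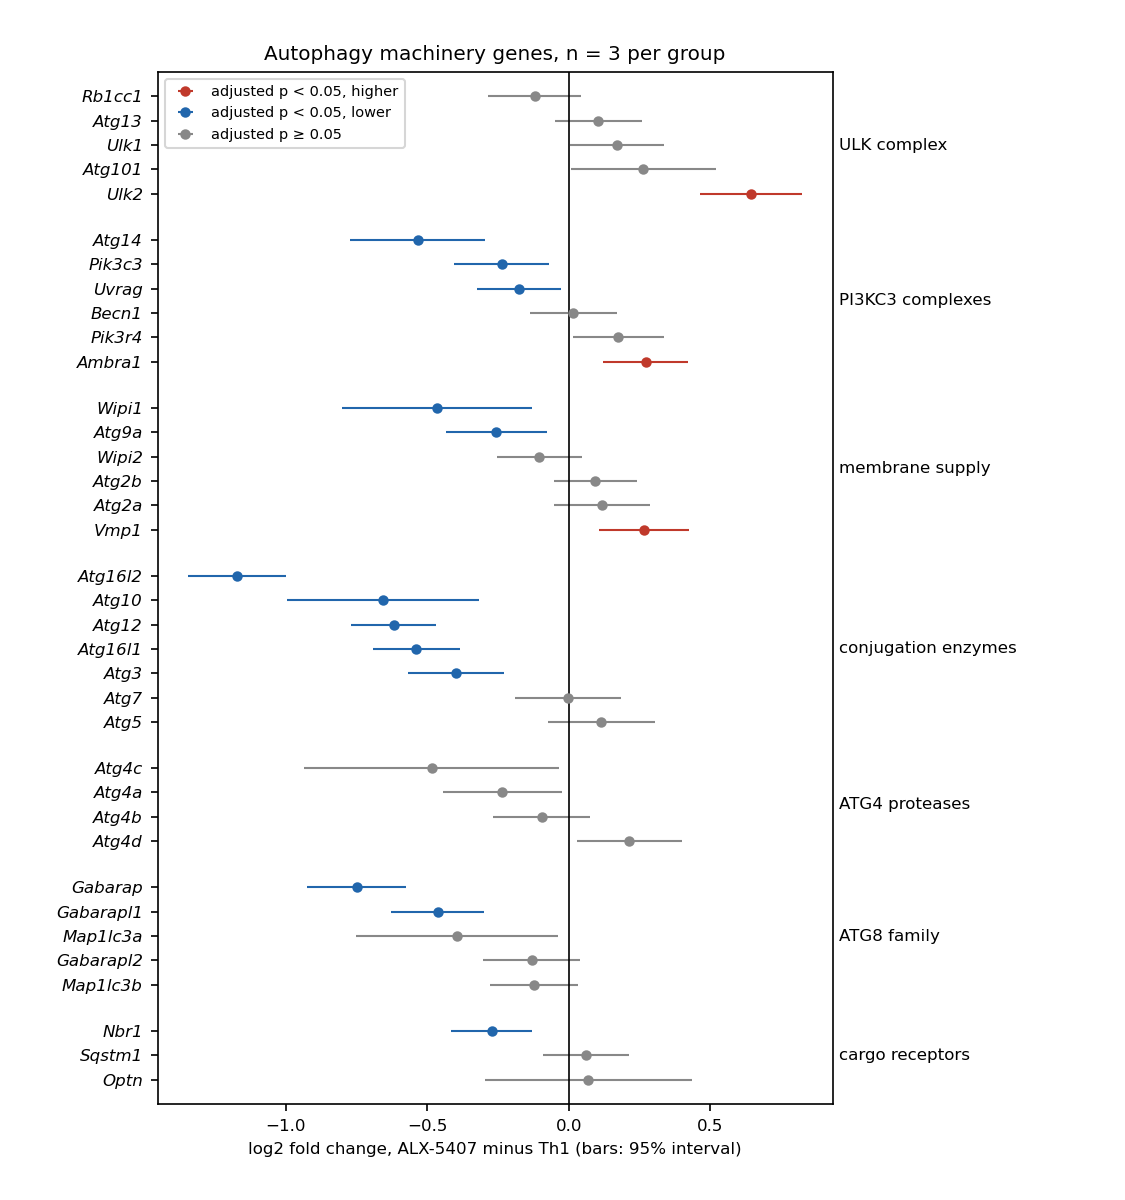
Log2 fold change (x axis, ALX-5407 minus Th1) of each of the 36 autophagy machinery genes (y axis), grouped by role, with 95% intervals as bars and n = 3 libraries per group; blue genes were lower, red genes higher and grey genes not past an adjusted p of 0.05. The 5 blue genes of the conjugation enzymes lie between -1.17 and -0.40, and Ulk2 is the red gene farthest to the right at 0.64.

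**Figure D2:**
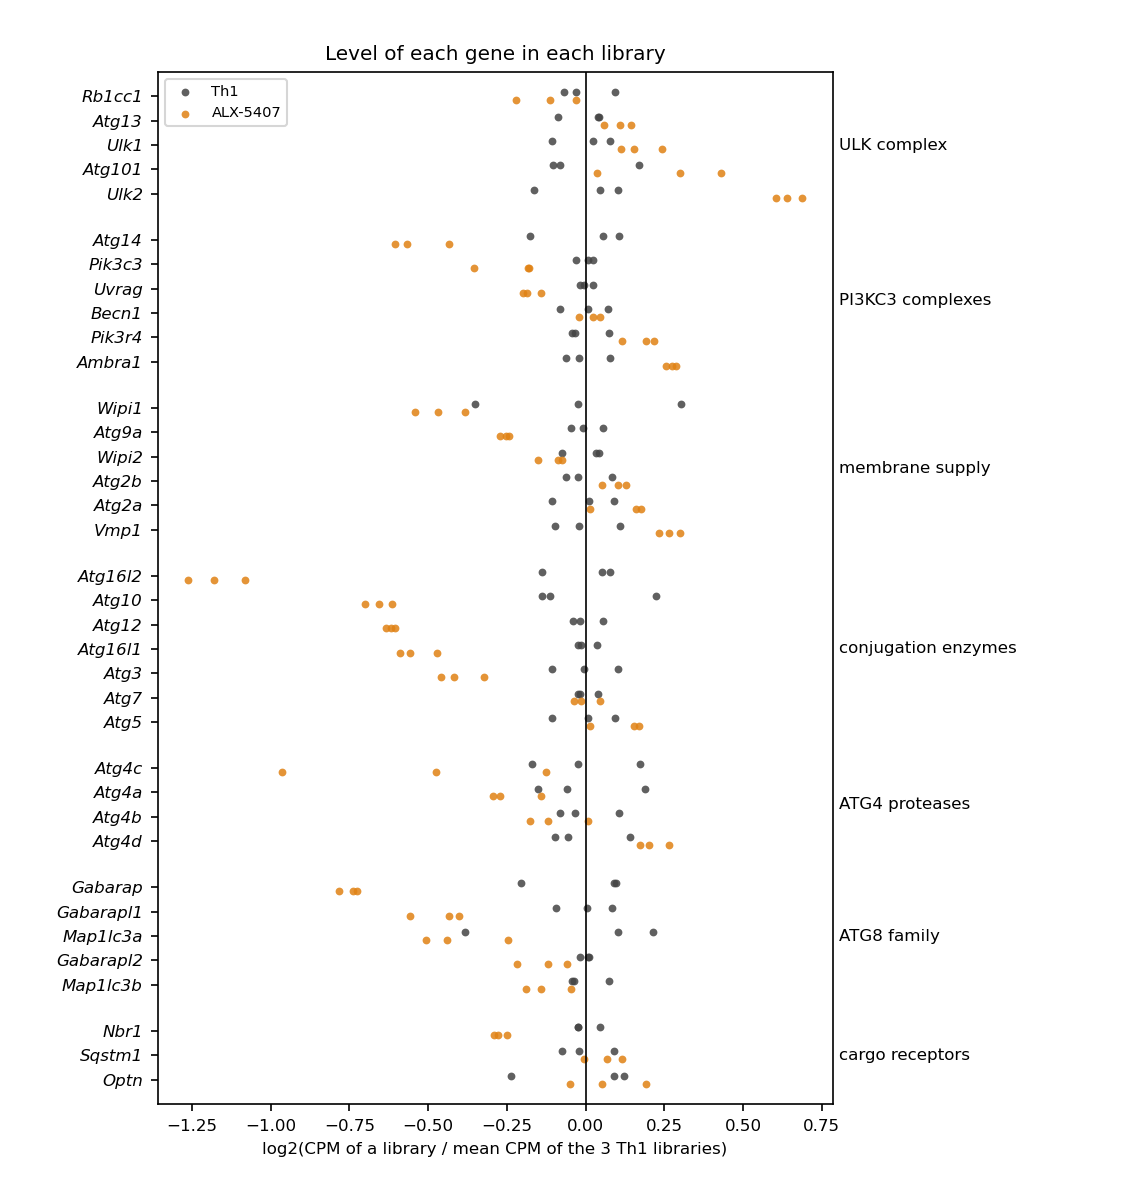
Level of each machinery gene (y axis) in each of the 6 libraries, as the log2 of its CPM over the mean CPM of the 3 Th1 libraries (x axis); grey points are Th1 and orange points ALX-5407 libraries. The points of both groups are apart for 22 genes and mixed for 14, and the 3 ALX-5407 points of Atg16l2 lie farthest to the left.

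The ULK complex receives the starvation signal from the kinases mTOR and AMPK and starts autophagosome formation. Of its 5 genes, 1 was higher, 0 were lower and 4 did not pass the test. Ulk2 (chr11:61775649-61855073, GRCm38, minus strand), which encodes a serine/threonine kinase of the complex, stood at 37.2, 30.9 and 35.8 CPM in the Th1 libraries and at 52.8, 55.8 and 54.0 CPM in the ALX-5407 libraries. Its log2 fold change was 0.64 (SE 0.085, adjusted p = 1.16e-05), a level 1.56-fold that of the Th1 libraries. The lowest ALX-5407 library was above the highest Th1 library by a wide gap compared with the spread within the groups. For Ulk1, the paralog of Ulk2, the log2 fold change was 0.17 (95% interval 0.0043 to 0.34, adjusted p = 0.0854), with levels of 50.7 ± 3.28 and 57.0 ± 2.64 CPM (SD, n = 3). Per kilobase of gene length, Ulk1 stood at 7.81 ± 0.506 CPM and Ulk2 at 5.80 ± 0.552 CPM in Th1 libraries, and at 8.79 ± 0.407 and 9.07 ± 0.254 CPM in ALX-5407 libraries (SD, n = 3). The kinase with the lower level per length in Th1 libraries was thus within the spread of the other with the drug. The adaptor subunits Atg13 (0.10, 95% interval -0.050 to 0.26) and Atg101 (0.26, 0.0078 to 0.52) and the scaffold Rb1cc1, also named FIP200 (-0.12, -0.28 to 0.043), did not pass the test.

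The class III PI3-kinase makes the lipid PI3P on the growing membrane. Here 1 of 6 genes was higher, 3 were lower and 2 did not pass the test. Atg14 (chr14:47540893-47570649, minus strand), the subunit that directs the kinase to sites of autophagosome formation, was counted at 18.4, 19.1 and 15.7 CPM in the Th1 libraries and at 11.6, 13.1 and 11.95 CPM in the ALX-5407 libraries. It fell by 0.53 on the log2 scale (SE 0.11, adjusted p = 0.000962). All 3 treated cultures were below the lowest control. Uvrag (chr7:98885021-99141141, minus strand) takes the place of ATG14 in the form of the kinase that acts on endosomes. Its levels were 71.2, 69.1 and 69.7 CPM without and 61.0, 61.5 and 63.4 CPM with ALX-5407, a log2 fold change of -0.18 (SE 0.070, adjusted p = 0.0481). The groups were apart, but this p-value was next to the threshold. It was lost without any 1 of the libraries Th1 1 (adjusted p = 0.103), Th1 2 (0.0645), ALX-5407 1 (0.159), ALX-5407 2 (0.159) and ALX-5407 3 (0.073).

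Pik3c3, the catalytic subunit VPS34 itself, was at 49.6, 47.7 and 49.0 CPM in Th1 libraries and at 38.2, 43.0 and 43.0 CPM in ALX-5407 libraries (log2 fold change -0.24, SE 0.079, adjusted p = 0.0209). The first ALX-5407 library was the lowest of the 6, and without it the adjusted p was 0.136, with a log2 fold change of -0.18. Without the first Th1 library the adjusted p was 0.0556. In the other direction, Ambra1 (chr2:91730134-91918849, plus strand), which encodes a Beclin 1 partner that promotes the activity of the kinase, was at 79.5, 74.3 and 72.2 CPM without and at 91.9, 89.96 and 91.0 CPM with the drug (log2 fold change 0.27, SE 0.071, adjusted p = 0.00459). Its 3 treated cultures lay close together and above all controls. The remaining genes, Becn1 (0.017, 95% interval -0.14 to 0.17) and Pik3r4, which encodes the regulatory subunit VPS15 (0.18, 0.015 to 0.34), did not pass the test. Of the exon bases of Becn1, 43.9% are also annotated to Cntd1 on the opposite strand. The counts on Cntd1 were few, at 1.41 ± 0.413 and 1.87 ± 0.0932 CPM (SD, n = 3). This does not show how reads on the shared bases were assigned.

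The products of 6 genes bring lipid to the growing membrane or mark it, and of these genes 1 was higher, 2 were lower and 3 did not pass the test. Wipi1 (chr11:109573331-109611967, minus strand), a PI3P-binding protein, was at 11.8, 9.41 and 7.51 CPM in the Th1 libraries and at 6.91, 6.57 and 7.33 CPM in the ALX-5407 libraries. The log2 fold change was -0.47 (SE 0.16, adjusted p = 0.0233). The third control lay just above the highest treated culture, and the first control was well above the rest. Without Th1 1 the log2 fold change was -0.30 (adjusted p = 0.164), and the call was also lost without ALX-5407 1 (adjusted p = 0.0577) or ALX-5407 2 (0.0756). Its paralog Wipi2, which recruits the conjugation enzymes through ATG16L1, had a log2 fold change of -0.10 (95% interval -0.25 to 0.046).

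Atg9a (chr1:75180860-75192196, minus strand), whose product is a lipid scramblase carried on small vesicles, was at 32.2, 30.0 and 30.8 CPM without and at 25.7, 26.2 and 26.0 CPM with ALX-5407 (log2 fold change -0.26, SE 0.084, adjusted p = 0.0189). The groups were narrow and apart. Its exon bases overlap by 32.6% with other genes, mainly Ankzf1 on the opposite strand, which had more counts than Atg9a and fell by 0.78 on the log2 scale (adjusted p = 1.60e-06). Whether strand was used in counting is not given in the sources used here, and without strand the reads of both genes cannot be told apart. The call of Atg9a was lost without Th1 1 (adjusted p = 0.0611), ALX-5407 1 (0.0697) or ALX-5407 2 (0.0601).

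Vmp1 (chr11:86583865-86683836, minus strand), a scramblase of the endoplasmic reticulum, was higher with ALX-5407, at 88.4, 90.4 and 92.5 CPM against 74.1, 70.3 and 81.2 CPM in the Th1 libraries. The log2 fold change was 0.27 (SE 0.075, adjusted p = 0.00742), and the lowest treated culture was above the highest control. It was 0.21 without the second Th1 library (adjusted p = 0.0512). The lipid transfer genes Atg2a (0.12, 95% interval -0.051 to 0.29) and Atg2b (0.095, -0.053 to 0.24) did not pass the test, and both had overlapping groups.

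The conjugation enzymes work as a chain. ATG7 activates ATG12 and the ATG8 proteins, ATG10 passes ATG12 to ATG5, ATG16L1 brings the product to the membrane, and ATG3 then links ATG8 proteins to lipid. Of these 7 genes, 5 were lower with ALX-5407, 0 were higher and 2 did not pass the test, with a median log2 fold change of -0.54. Their summed level was 369 to 386 CPM in Th1 libraries and 252 to 254 CPM in ALX-5407 libraries.

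Atg16l2 (chr7:101263034-101302251, minus strand), a paralog of Atg16l1, was at 105, 92.2 and 107 CPM in the Th1 libraries and at 47.9, 44.8 and 42.3 CPM in the ALX-5407 libraries. It fell by 1.17 on the log2 scale (SE 0.082, adjusted p = 1.41e-08), which left 0.444 of the Th1 level. Each treated culture was far below every control. Atg16l1 (chr1:87755870-87792428, plus strand), whose product holds the conjugate at the membrane, was at 73.5, 73.1 and 76.2 CPM without and at 50.4, 53.5 and 49.4 CPM with the drug (log2 fold change -0.54, SE 0.072, adjusted p = 1.45e-05). Both groups were tight and far apart. Per kilobase, Atg16l2 stood at 11.99 ± 0.961 CPM and Atg16l1 at 7.71 ± 0.175 CPM in Th1 libraries, and at 5.32 ± 0.330 and 5.31 ± 0.224 CPM with ALX-5407 (SD, n = 3), so that the higher level of Atg16l2 was no longer seen.

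Atg12, the ubiquitin-like protein of the chain, went from 77.9, 83.1 and 79.0 CPM to 52.0, 52.6 and 51.5 CPM (log2 fold change -0.62, SE 0.071, adjusted p = 2.69e-06). The treated cultures were nearly equal and all below the controls. Its partner Atg5 was at 29.4 ± 2.05 CPM without and 31.8 ± 1.87 CPM with ALX-5407 (SD, n = 3; log2 fold change 0.12, 95% interval -0.074 to 0.30), and the groups overlapped. Atg10 (chr13:90935356-91223968, minus strand), the E2-like enzyme for ATG12, was at 6.17, 6.06 and 7.80 CPM in Th1 libraries and at 4.11, 4.24 and 4.36 CPM in ALX-5407 libraries (log2 fold change -0.66, SE 0.16, adjusted p = 0.00303). This was the least abundant of the called conjugation genes, and its groups did not overlap. Atg3 (chr16:45158785-45188538, plus strand), the E2-like enzyme for ATG8 proteins, was at 56.4, 65.2 and 60.6 CPM without and at 44.1, 45.5 and 48.6 CPM with the drug (log2 fold change -0.40, SE 0.080, adjusted p = 0.000636). The highest treated culture was below the lowest control. Atg7, the E1-like enzyme shared by both branches, did not pass the test and had a log2 fold change of -0.0022 (95% interval -0.19 to 0.19), with levels of 23.1 ± 0.563 and 23.0 ± 0.686 CPM (SD, n = 3).

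The ATG4 proteases trim ATG8 proteins before conjugation and later release them from lipid. None of the 4 genes passed the test at an adjusted p-value under 0.05 in edgeR, although Atg4a, Atg4c and Atg4d had an unadjusted p under 0.05 (0.0308, 0.037 and 0.0268). Their log2 fold changes were -0.23 for Atg4a (95% interval -0.44 to -0.025), -0.095 for Atg4b (-0.27 to 0.077), -0.48 for Atg4c (-0.93 to -0.033) and 0.21 for Atg4d (0.028 to 0.40). Atg4c had the lowest level of the group, at 4.60 ± 0.552 and 3.30 ± 0.931 CPM (SD, n = 3). For Atg4d the groups did not overlap, and 19.3% of its exon bases are shared with Kri1 on the opposite strand, which was lower with ALX-5407 (log2 fold change -0.29, adjusted p = 0.0122).

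The ATG8 genes encode small ubiquitin-like proteins that are cut by ATG4 after a glycine near their end, the residue that is then joined to lipid. To show what the conjugation chain acts on, the last 45 coding bases of each gene are printed 5′ to 3′ from GENCODE M21 transcripts (GRCm38, all on the plus strand), with the codon of that glycine in capitals and the stop codon at the end. They lie at chr11:69994480-69994524 for Gabarap, chr6:129541123-129541167 for Gabarapl1, chr8:111952361-111952405 for Gabarapl2, chr8:121596726-121596770 for Map1lc3b and chr2:155277593-155277637 for Map1lc3a.
Gabarap: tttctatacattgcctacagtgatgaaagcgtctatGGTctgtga
Gabarapl1: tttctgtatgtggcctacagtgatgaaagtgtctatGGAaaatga
Gabarapl2: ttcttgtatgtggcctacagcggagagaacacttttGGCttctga
Map1lc3b: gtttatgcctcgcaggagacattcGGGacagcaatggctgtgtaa
Map1lc3a: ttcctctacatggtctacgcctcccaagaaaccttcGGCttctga
A single codon stands between the glycine and the stop in 4 of the genes, and 5 codons do in Map1lc3b. Over the whole coding sequence, Gabarap and Gabarapl1 were 74.9% identical and Map1lc3a and Map1lc3b 74.1%, and the other pairs were 50.4% to 63.8% identical.

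Both genes of the more alike GABARAP pair were lower with ALX-5407, 0 of the 5 ATG8 genes were higher and 3 did not pass the test. Gabarap (chr11:69991143-69994951, plus strand) was at 227, 228 and 185 CPM in the Th1 libraries and at 129, 128 and 124 CPM in the ALX-5407 libraries. Its log2 fold change was -0.75 (SE 0.083, adjusted p = 1.91e-06), and this machinery gene, the one with the highest level per length, fell by 40.5%. The treated cultures were almost equal, and the third control was below the other two yet above all of them. Gabarapl1 (chr6:129533160-129542346, plus strand) was at 75.1, 79.4 and 70.1 CPM without and at 56.6, 55.4 and 50.9 CPM with the drug (log2 fold change -0.46, SE 0.077, adjusted p = 0.000123). Every treated culture was below every control. Of its exon bases, 28.3% are also annotated to 1700101I11Rik on the opposite strand, which had 93 counts over all libraries beside 12943 on Gabarapl1. These counts do not show how reads on the shared bases were assigned.

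The other ATG8 genes had log2 fold changes of -0.13 for Gabarapl2 (95% interval -0.30 to 0.041), -0.12 for Map1lc3b (-0.28 to 0.031) and -0.39 for Map1lc3a (-0.75 to -0.038), with adjusted p-values from 0.0646 to 0.203. Map1lc3b, whose protein LC3B is the usual marker of autophagosomes, has 4 further copies in the table with 95% or more identity, which held counts equal to 5.57% of its own. Summed with those copies its log2 fold change was -0.15. In both groups the order of levels per kilobase was Gabarap, Gabarapl1, Gabarapl2, Map1lc3b and Map1lc3a. In Th1 libraries these were 116 ± 13.3, 37.2 ± 2.32, 15.8 ± 0.166, 10.9 ± 0.507 and 6.28 ± 1.30 CPM per kilobase, and with ALX-5407 they were 68.7 ± 1.38, 26.98 ± 1.51, 14.4 ± 0.797, 10.03 ± 0.512 and 4.78 ± 0.459 (SD, n = 3). In neither group did neighbours in this order overlap in their library values. The order rests on the annotated lengths, 7517 bases for Map1lc3b and 1844 to 2325 for the GABARAP genes. Without lengths, the mean of Map1lc3b was 82.2 CPM in Th1 and 75.4 CPM in ALX-5407 libraries. This was above Gabarapl1 (74.9 and 54.3 CPM) and Gabarapl2 (36.6 and 33.5 CPM). As a share of the summed level per kilobase of the family, Gabarap went from 62.1% ± 1.91 to 55.0% ± 0.774, while Gabarapl2 went from 8.53% ± 0.834 to 11.5% ± 0.593 and Map1lc3b from 5.94% ± 0.828 to 8.03% ± 0.161 (SD, n = 3). By reads without lengths, Map1lc3b held 18.5% to 22.6% of the family in Th1 libraries and 25.2% to 26.0% in ALX-5407 libraries.

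**Figure D3:**
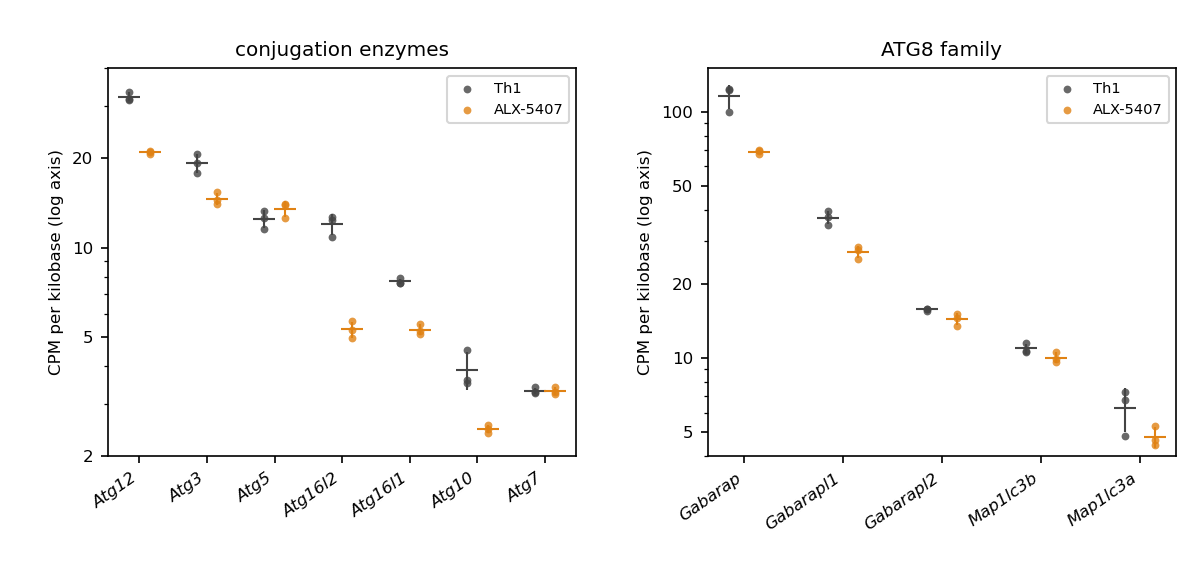
Levels per kilobase of gene length (y axis, CPM per kilobase, log axis) of the 7 conjugation enzyme genes and the 5 ATG8 genes (x axis), ordered by their Th1 mean; points are libraries, horizontal marks are means and vertical bars SD of n = 3. Atg16l2 falls from 11.99 to the 5.32 that Atg16l1 also reaches, the libraries of both groups overlap for Atg5 and Atg7, and Gabarap falls from 116 to 68.7 while keeping the first place.

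Cargo receptors bind ubiquitinated cargo and ATG8 proteins at once. Of the 3 genes listed, Nbr1 (chr11:101552149-101581951, plus strand) was lower, at 124, 124 and 130 CPM in Th1 libraries and at 103, 106 and 104 CPM in ALX-5407 libraries (log2 fold change -0.27, SE 0.067, adjusted p = 0.00327). The groups were tight and apart. Sqstm1, which encodes p62, was at 161 ± 9.41 and 168 ± 7.14 CPM (SD, n = 3; log2 fold change 0.060, 95% interval -0.092 to 0.21), and Optn was low in both groups, at 4.46 ± 0.590 and 4.67 ± 0.397 CPM (0.070, -0.30 to 0.43). Neither passed the test.

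Because partners and paralogs often had different values, the log2 ratio of their CPM was computed within libraries for 11 pairs. The pairs were picked after their values had been seen, and no test is given for them. The ratio of Atg12 to Atg5 was 1.45 ± 0.099 in Th1 libraries and 0.71 ± 0.099 with ALX-5407 (SD, n = 3), that of Atg16l2 to Atg16l1 went from 0.45 ± 0.099 to -0.18 ± 0.097, and that of Ulk2 to Ulk1 from -0.55 ± 0.072 to -0.073 ± 0.027. Atg14 to Becn1 went from -1.87 ± 0.079 to -2.42 ± 0.063, and Gabarap to Map1lc3b from 1.37 ± 0.24 to 0.75 ± 0.049.

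The log2 fold changes of all genes went with gene length. Spearman's correlation was 0.21 across all genes tested and 0.24 across the 36 machinery genes, given as a description, since genes are not independent replicates. Among the shortest 25% of all genes, 9.01% were higher and 28.1% lower, and among the longest 25%, 36.1% were higher and 19.9% lower. Among the called conjugation and ATG8 genes, Atg10, Gabarap, Gabarapl1, Atg12 and Atg3 were short, with 1718, 1844, 2013, 2492 and 3154 bases. For Atg12 the exons in GENCODE M21 cover 7711 bases, so its place here and its level per kilobase depend on the annotation. Atg16l2 and Atg16l1 were long, with 8469 and 9628 bases. With the trend of fold change on length removed, 4 machinery genes were higher and 16 lower, and the median was -0.20.

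**Figure D4:**
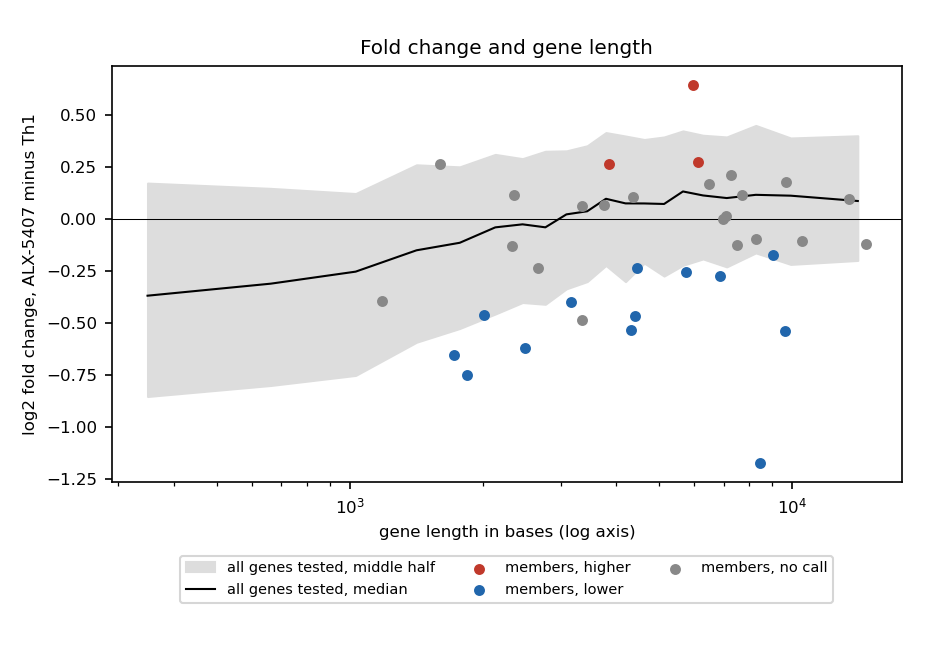
Log2 fold change (y axis, ALX-5407 minus Th1) against gene length in bases (x axis, log axis) for the 36 machinery genes (points) over all 15938 genes tested (line for the median and grey band for the middle 50% in 20 bins of equal size). The line rises from left to right, the lower genes (blue) lie below it at short and long lengths, and Atg16l2 is the lowest point at -1.17.

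Transcription factors known to act on autophagy genes were among the upstream genes. TFEB and TFE3 are activators of lysosome and autophagy genes, and Tfeb rose from 9.28 ± 0.666 to 14.4 ± 2.26 CPM (SD, n = 3; log2 fold change 0.63, adjusted p = 0.000897) and Tfe3 by 0.26 (adjusted p = 0.0308). Atf4, a regulator of the amino acid response, was at 421, 446 and 378 CPM in the Th1 libraries and at 262, 263 and 249 CPM in the ALX-5407 libraries (log2 fold change -0.69, adjusted p = 1.81e-06), and Ddit3, which encodes CHOP, fell by 0.47 (adjusted p = 0.000486). Of the 12 machinery genes listed from general knowledge as targets of ATF4 or CHOP, 0 were higher and 6 lower (Atg16l1, Atg12, Atg3, Nbr1, Atg10 and Gabarap), with a median log2 fold change of -0.20. This is 0% higher and 50% lower, beside 8.33% and 36.1% of all 36 machinery genes and 24.5% and 23.2% of all genes tested. The list was chosen with earlier results of these data known, and a link to the fall of Atf4 was not tested. Outside the list, Trib3 and Sesn2 are also genes that ATF4 is known to induce, and Trib3 rose by 1.63 (adjusted p = 3.18e-10) and Sesn2 by 1.5 (adjusted p = 5.95e-09). Of the 4 machinery genes listed as TFEB targets, Uvrag and Wipi1 were lower, Map1lc3b and Sqstm1 did not pass the test, and 0 were higher. This is 0% higher and 50% lower, beside the same shares of all machinery genes and all genes. These targets too were chosen with earlier results known.

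The promoters of 30 of the 36 machinery genes, taken from the RefSeq table of the GRCm38.p6 build as the 250 bases before the start, were searched on both strands for 7 short motifs. The CLEAR core of TFEB and TFE3 (TCACGTGA) was in 1 machinery gene, Atg3, and in 0.907% of the promoters of 27025 genes. An E-box (CACGTG), which the CLEAR core contains, was in 3, beside 6.86% of all. The ATF4 element (TGATGNAA) and the FOXO motif (GTAAACA) were in 0 of the 30, beside 3.91% and 3.54% of all. A cyclic AMP element (TGACGTCA) was in 1, Atg16l2, beside 1.77%, a CCAAT box (CCAAT) in 8, beside 37.5%, and a GC box (GGGCGG) in 19, beside 35.4%. A match describes letters only. The 27025 genes were not limited to genes tested here or to levels like those of the machinery genes, so the shares are not like for like. Some starts lie inside the annotated gene, such as that of Atg7, which had an E-box and CCAAT boxes. Next are the promoters of Atg3, which was lower and holds the CLEAR core, and Ulk2, the highest of the machinery genes by fold change. They are printed 5′ to 3′ up to the start, or up to the first annotated exon where that comes earlier. Every motif match on either strand is in capitals. The printed stretches are chr16:45158579-45158784 on the plus strand and chr11:61855093-61855342 on the minus strand.
Atg3: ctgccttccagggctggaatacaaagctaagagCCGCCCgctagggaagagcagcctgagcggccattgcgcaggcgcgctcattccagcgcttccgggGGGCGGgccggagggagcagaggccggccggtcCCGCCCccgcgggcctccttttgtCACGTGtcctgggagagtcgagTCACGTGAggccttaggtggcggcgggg
Ulk2: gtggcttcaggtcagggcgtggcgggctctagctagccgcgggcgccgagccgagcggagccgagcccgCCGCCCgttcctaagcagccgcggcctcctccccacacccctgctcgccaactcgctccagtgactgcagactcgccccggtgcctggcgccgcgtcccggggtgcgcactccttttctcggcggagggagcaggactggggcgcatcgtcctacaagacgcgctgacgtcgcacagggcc
The print of Atg3 holds 206 of its 250 bases, since its annotated exon begins before the start used. Positions are counted from the start, not from the end of the print. In Atg3 the CLEAR core begins 72 bases before the start, a separate E-box 94 bases before it, and 3 GC boxes lie further upstream. In Ulk2 the only match is 1 GC box, 181 bases before the start.

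The other genes of the pathway were counted in 4 lists of 138 genes. Over all genes tested, 24.5% were higher and 23.2% lower. Among protein-coding genes with a mean count within the range of the machinery genes, 33.4% were higher and 24.2% lower. Among 22 other genes of autophagosome formation, 6 were higher (27.3%) and 5 lower (22.7%), with a median log2 fold change of 0.068. These shares were close to those of all genes. Atg9b, the paralog of Atg9a, fell from 60.8 ± 5.47 to 22.5 ± 3.86 CPM (SD, n = 3; log2 fold change -1.43, SE 0.11, adjusted p = 5.57e-08). C9orf72 (-0.73), Wdr45 (-0.64), Sh3glb1 (-0.51) and Wdr45b (-0.27) were also lower, of which Wdr45 and Wdr45b encode PI3P-binding relatives of the WIPI proteins. Smcr8 (0.67), Trp53inp1 (0.53), Wdr41 (0.34), Tbc1d5 (0.32) and Trappc8 (0.28) were higher. The products of C9orf72, Smcr8 and Wdr41 form 1 complex, and C9orf72 was lower while its partners were higher.

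Of the other cargo receptors, 22 of 25 were tested, and 3 were higher (13.6%) and 6 lower (27.3%), with a median of -0.053. The shares over all genes were 24.5% and 23.2%. Bnip3l, a receptor for mitochondria also named NIX, had the highest level of those named and went from 516 ± 31.4 to 306 ± 11.7 CPM (SD, n = 3; log2 fold change -0.75, SE 0.072, adjusted p = 4.37e-07). Its paralog Bnip3 fell by 0.39 on the log2 scale (adjusted p = 0.000618), and Sec62 (-0.62) and Calcoco1 (-0.61), receptors for endoplasmic reticulum, and Nufip1 (-0.43) were lower as well. The higher genes were Phb2 (0.25), Retreg3 (0.27) and Atl3 (0.25), with adjusted p-values from 0.00563 to 0.0147.

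All 45 genes of fusion and the lysosome were tested, with 11 higher (24.4%), 13 lower (28.9%) and a median of 0.047. Beside these, 24.5% of all genes were higher and 23.2% lower. The lower genes were led by Gla, the lysosomal alpha-galactosidase (-1.35, adjusted p = 1.73e-08), the proton pump subunit Atp6v0b (-0.93, adjusted p = 1.29e-07), Cd63 (-1.25), the fusion protein gene Vamp8 (-0.68) and the calcium channel gene Mcoln1 (-0.62). The higher genes were led by Plekhm1 (1.12, adjusted p = 1.09e-07) and Epg5 (0.64), which encode tethers between autophagosome and lysosome, another proton pump subunit, Atp6v0a2 (0.84), and the hydrolase Gusb (0.76). Subunits of 1 pump thus had opposite signs.

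Of 46 upstream kinases, nutrient sensors and transcription regulators, 45 were tested, and 15 were higher (33.3%) and 12 lower (26.7%), with a median of 0.088. Over all genes the shares were 24.5% and 23.2%. Among protein-coding genes with a mean count within the range of the machinery genes they were 33.4% and 24.2%. The shares of the upstream list were close to the latter. Mtor, the kinase that restrains the ULK complex when nutrients are plentiful, was at 76.7, 68.7 and 74.5 CPM in the Th1 libraries and at 103, 108 and 103 CPM in the ALX-5407 libraries (log2 fold change 0.51, SE 0.072, adjusted p = 2.36e-05). All 3 treated cultures were above the controls. Tsc2, which encodes an inhibitor of the same kinase, rose by 0.57 (adjusted p = 1.52e-05), and Camkk2, an activator of AMPK, by 0.99 (adjusted p = 1e-06). Foxo3, a transcription factor that can induce autophagy genes, went from 85.9 ± 8.29 to 153 ± 10.3 CPM (SD, n = 3; log2 fold change 0.84, adjusted p = 5.63e-07). Among the lower genes besides Atf4 and Ddit3 were Flcn, a regulator of mTOR and TFE3 at the lysosome (-0.98, adjusted p = 1.55e-07), Mlst8 (-0.50), a subunit of mTOR complexes, and Prkab2 (-0.47), a subunit of AMPK. These values are of RNA, and no protein, phosphorylation or autophagic flux was measured in these files.

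**Figure D5:**
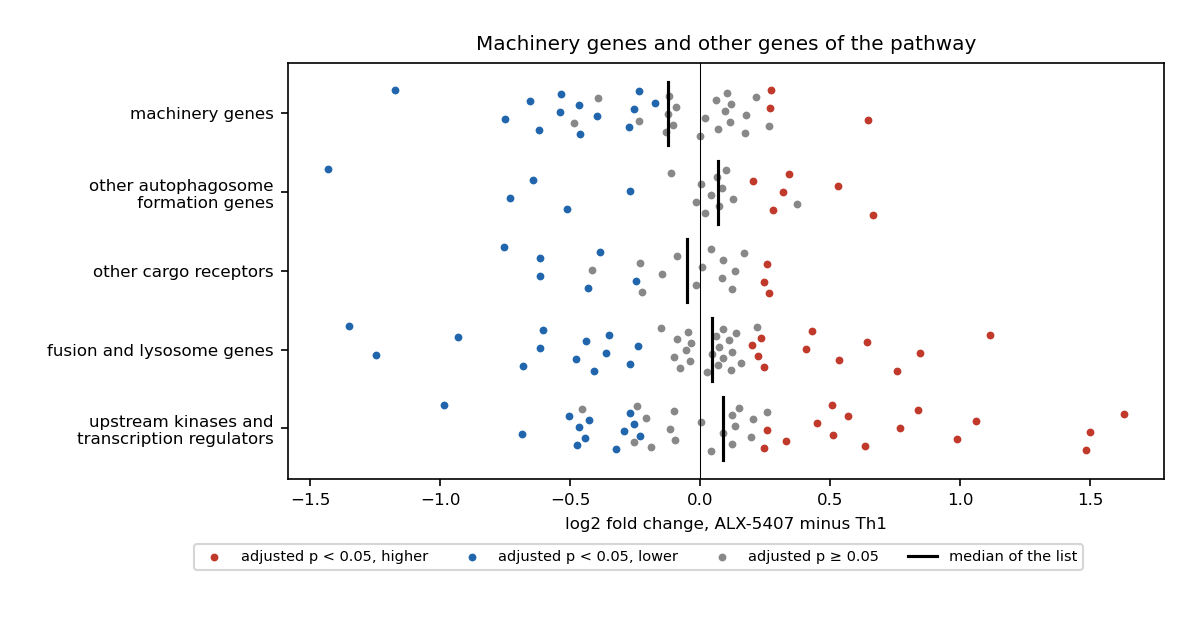
Log2 fold change (x axis, ALX-5407 minus Th1) of every tested gene (points) in the machinery list and in the 4 lists of other pathway genes (y axis); red genes were higher, blue lower and grey not past an adjusted p of 0.05, and the thick line is the median of the list. The machinery list has its median at -0.12 with 3 red and 13 blue genes, and the upstream list has its median at 0.088 with 15 red and 12 blue genes.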

How the data were processed

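The authors deposited raw counts, the number of reads on each gene in each library, with gene names, mouse coordinates and gene lengths. The submitters' processing notes name fastp, HISAT2 2.0.5, featureCounts 1.5.0-p3 and mm10. Their order and options, the use of strand and the annotation are not given in the sources used here. The labels describe capture of poly(A) RNA, and the study's methods describe depletion of ribosomal RNA.

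Counts were fitted over all genes with edgeR 4.0.16 in R 4.3.3 (filterByExpr with a minimum count of 10 and a minimum total of 15, TMM, quasi-likelihood test, Benjamini-Hochberg adjustment). The biological coefficient of variation was 0.0978. No libraries were identical, and within groups the ratio of chi-square to its degrees of freedom was 5.58 to 22.3, so each library counted as 1 replicate. CPM per kilobase used the lengths in the table. Overlapping exons, coding sequences and close copies (BLAST 2.17.0, 95% identity over 100 bases or more) came from GENCODE M21, in which 54409 of the gene identifiers were found, 98.3% of them with the same start and end. The procedure was tested on simulated counts, with changed genes drawn from all genes tested at any level. There edgeR called 42.9% of genes with a true log2 change of 0.5 and 73.5% of those with 1. The number called in the wrong direction was 0. Rates at the levels of the machinery genes were not computed. A gene that did not pass the test may still have changed.

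The members, their roles and the other lists were chosen from general knowledge with earlier results of these data known. The genes named are all 36 members, with library values for those called, up to 5 called genes in each direction with the smallest p in each pathway list, and Mtor, Tfeb, Tfe3, Foxo3, Atf4 and Ddit3. Ddit3 has a second identifier in the table, which was not used. The results for some listed genes are not reported here. Genes that share exons with members and markers of other cells were named with their values where a result touched them. Alternatives were other scalings, filters and tools (DESeq2 1.42.0, voom in limma 3.58.1), protein-coding genes alone, removal of the length trend, a replicate block and each library left out. Figures were drawn with matplotlib 3.10.9.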

Additional observations from a re-analysis of the deposited data

How the results depend on the processing

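The 16 called machinery genes kept their direction under all 17 alternatives, and 11 of them (Ulk2, Ambra1, Atg14, Atg3, Atg10, Atg12, Atg16l1, Atg16l2, Gabarap, Gabarapl1 and Nbr1) passed the test under each. Of the fold changes of members recomputed, 547 kept their direction and their side of the threshold, 34 newly passed it, 19 no longer did and 12 changed sign. These 12 were fold changes near 0 of genes that passed the test neither before nor after. Becn1 was at -0.037 with upper quartile scaling, -0.0038 with at least 1 CPM in 3 libraries, -0.088 and -0.087 with the length trend removed without and with a replicate block, -0.031 with protein-coding genes only and, with 1 library left out, between -0.038 (without Th1 replicate 3) and 0.041. Atg7 was at 0.056 with total count only, 0.0079 without the filter on low counts, and between -0.023 and 0.021 with 1 library left out (above 0 without Th1 replicate 3, ALX-5407 replicate 1 or ALX-5407 replicate 3), and Optn was between -0.045 (without Th1 replicate 1) and 0.13. The count of higher machinery genes was 7 instead of 3 with library sizes scaled by total count only, which also lost the calls of Pik3c3, Uvrag and Atg9a, and 5 with a replicate block. The count of higher genes of fusion and the lysosome was 7 instead of 11 with upper quartile scaling. The cause of these shifts was not tested. With 1 library left out, 3 to 4 machinery genes were higher and 9 to 15 lower, and the median was between -0.16 and -0.10. Without the filter on low counts, Uvrag and Atg9a were not called. Scaling moved the median of all genes by at most 0.059 in either direction, and higher genes made up 45.1% to 58.0% of all calls, beside 51.4% in the reported fit. The labels do not say whether replicate numbers pair the libraries. The deviations of same-numbered libraries from their group means had correlations of -0.0084, 0.0036 and 0.063. Of 6 libraries, 2 correlated best with their own number. With 3 libraries in each group these values cannot settle whether same-numbered cultures shared a mouse or a batch. With the replicate block, 5 machinery genes were higher and 15 lower. Over all genes, 4071 were then higher and 3833 lower, beside 3910 and 3695 in the reported fit. With 3 libraries in each group, intervals of genes under about 10 CPM such as Atg4c, Optn, Map1lc3a, Atg10 and Wipi1 were the widest.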
